A study of Mus musculus with 8 samples.

Results

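Mouse cultures labelled BMAd (bone marrow adipocytes) that received dexamethasone together with GW9662 were compared with control cultures. The comparison rests on 5 of the 8 RNA libraries of the series: 2 labelled Control and 3 labelled GC+GW9662, chosen by these labels alone. Per the labels, wild-type (WT) mouse bone marrow stem cells were grown in αMEM with 15% serum and differentiated for 14 days with a commercial adipogenesis kit. Control cultures had this differentiation only. GC+GW9662 cultures had, for 24 hours, dexamethasone (DEX, a synthetic glucocorticoid) at 1e-06 M and GW9662, an antagonist of the adipocyte receptor PPARγ, whose concentration the labels leave out. The groups differ by both agents, so the effects of DEX and of GW9662 cannot be told apart in this comparison. The labels give a single cell name (BMAd) and no record of whether replicate libraries were grown apart. The p-values therefore reflect only how far libraries within groups spread, which may be technical. That spread was estimated over all 8 libraries of the series, including 3 labelled GC that enter no comparison.

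Glucocorticoids bind the glucocorticoid receptor, which enters the nucleus and turns on genes such as Fkbp5, Per1 and Klf9. PPARγ, with its partner RXR, drives fat cell formation and genes of lipid uptake and storage, and GW9662 binds it covalently and blocks ligand activation. Marrow adipocytes arise from stromal cells that can also form osteoblasts, and glucocorticoid excess is known for marrow fat gain and bone loss. In culture, marrow preparations can keep macrophages beside the stromal cells.

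Gene values were deposited as TPM, which divides reads by gene length and brings every library to one sum. Differences below are GC+GW9662 minus Control on log2(TPM + 1), with standard errors and adjusted p-values from limma (Benjamini-Hochberg over 14985 genes that reached 1 TPM in at least 2 of the 8 libraries). This scale understates the change of low genes. Library values are given in replicate order, Control replicates 1 and 2 first. At exon lengths from the GENCODE M21 annotation, 1 read in a gene of 1000 bases was worth about 0.0880 to 0.0969 TPM. The steps between low values gave an estimated 25214812 to 38077123 reads per library. Of these low values, 59.9% to 63.4% were whole reads within 0.02. All 3 GC+GW9662 libraries had fewer estimated reads (26688047 at most) than Control (36203062 at least). Reads in amplified libraries are not independent molecules. Control libraries correlated at 0.994 across genes and GC+GW9662 libraries at 0.968 to 0.983, against 0.858 to 0.906 between the groups.

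The libraries labelled GC+GW9662 were lower than Control for most genes: 7284 genes (48.6% of those tested) fell and 2114 (14.1%) rose, 62.7% in all, and the median gene differed by -0.495. By at least 2-fold, 5138 (34.3%) fell and 716 (4.78%) rose, 39.1% in all. The groups did not overlap for 8593 genes that were lower (57.3%) and 3242 that were higher (21.6%), 79.0% in all. These counts depended on the Control libraries: without Control replicate 1, 916 genes rose and 4986 fell, and without Control replicate 2, 1292 rose and 5603 fell. Median-ratio scaling, which centres the typical gene on the same level in every library, left the median gene at 0.036, with 4507 genes higher (30.1%) and 4601 lower (30.7%), 60.8% in all.

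The difference followed gene length. In 10 equal bins of genes by exon length the median went from 0.587 in the shortest bin (up to 622 bases) to -1.68 in the longest (9135 bases and above). Each GC+GW9662 library showed the same slope, with a longest bin -2.16, -2.42 and -2.03 below the shortest in replicates 1, 2 and 3. Control replicate 2 minus replicate 1 stayed between -0.053 and 0.028 in every bin. In the shortest bin 29.0% of genes rose and 4.2% fell, and in the longest 1.2% rose and 90.9% fell. The same gradient stood in 10 bins of protein-coding genes alone (0.50 to -1.72). Its cause was not tested.

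**Figure D1:**
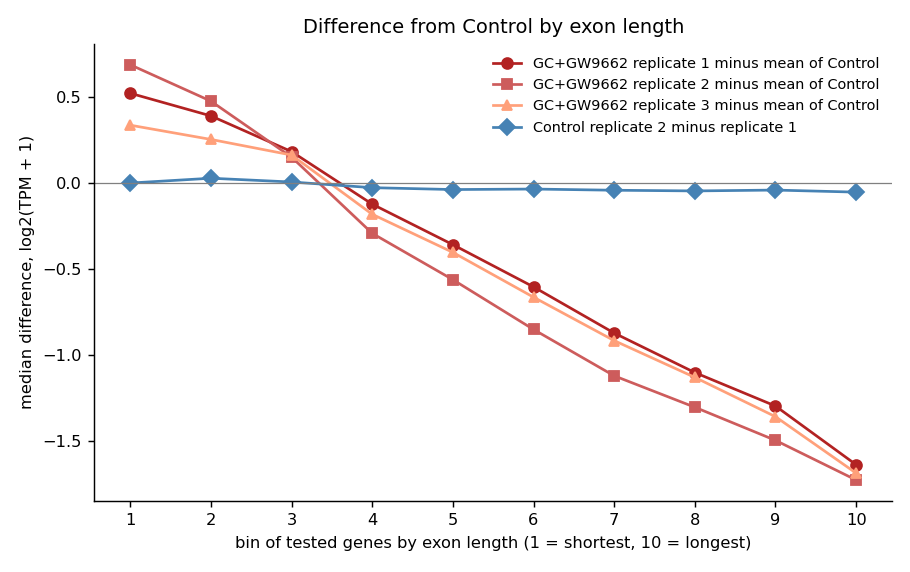
Median difference on log2(TPM + 1) in 10 equal bins of tested genes by exon length, for each GC+GW9662 library minus the mean of Control, and for Control replicate 2 minus replicate 1. All 3 GC+GW9662 libraries descend with length, to -1.64, -1.73 and -1.69 in the longest bin, while the Control difference lies between -0.053 and 0.028.

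Neighbouring genes that start within 500 bases of each other and are read in opposite directions showed the length relation as well. Such pairs were taken by annotated starts alone, and whether they share a promoter was not tested. They include mt-Cytb and mt-Nd6 of the mitochondrial chromosome, and some genes, such as Cdnf, recur. There were 521 such pairs of tested protein-coding genes, and in 400 of them (76.8%) the longer gene had the lower difference. The longer fell and the shorter rose in 91 pairs, and the opposite occurred in 6. In 212 pairs the longer transcript was at least 2 times the shorter. In 195 of these 212 pairs (92%) the longer gene had the lower difference, with medians of -1.18 for the longer and 0.34 for the shorter genes. The longer gene fell and the shorter rose in 64 of the 212, and the opposite occurred in 0. Pairs named here were chosen after their values were seen. Xpc, a DNA repair gene with a principal transcript of 3634 bases, measured 15.9 and 15.4 TPM in Control and 1.67, 2.27 and 1.75 TPM in GC+GW9662. Its neighbour Lsm3, an RNA-processing gene of 743 bases, measured 17.8 and 19.3 and 32.8, 44.5 and 32.4 TPM. Mphosph10, a nucleolar gene of 2248 bases, fell by 2.70 on the log2 scale, while its neighbour Mcee, a mitochondrial enzyme gene of 828 bases, rose by 1.11 ± 0.29 (adjusted p = 0.011).

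**Figure D2:**
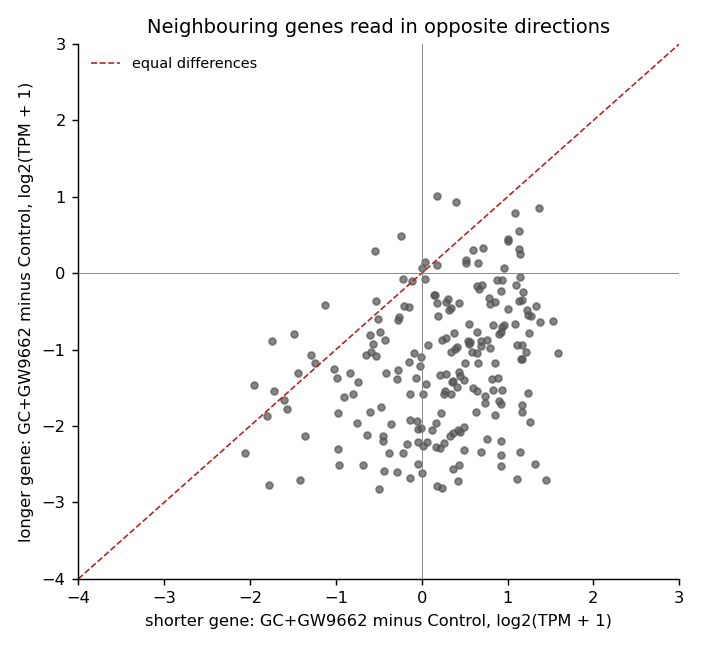
Difference of the longer gene (vertical axis) against that of the shorter gene (horizontal axis), GC+GW9662 minus Control on log2(TPM + 1), for 212 pairs of genes read in opposite directions from starts within 500 bases, the longer transcript at least 2 times the shorter. Points below the dashed line of equal differences are the 195 pairs whose longer gene had the lower difference.

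For this reason each result is also given after median-ratio scaling and after removing the trend with exon length from every library, and a gene that passed in the same direction in all 3 fits is said to hold on all 3 scales. Of the tested genes, 1615 (10.8%) held as higher and 2634 (17.6%) as lower. These shares, and 14.1% higher and 48.6% lower on log2(TPM + 1), are the backgrounds for every gene list below. After removal of the exon-length trend alone 3543 genes (23.6%) rose and 3412 (22.8%) fell. Values with the trend on the length of the principal transcript removed, were added after the data were seen and are also given where they ended a call. For 47 genes the direction reversed between log2(TPM + 1) and median-ratio scaling while passing in both.

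Known glucocorticoid targets were mostly lower in the libraries labelled GC+GW9662. Of 23 tested glucocorticoid-induced genes, 16 fell and 1 rose, and 8 held as lower and 0 as higher on all 3 scales (backgrounds 17.6% and 10.8%). With the transcript-length trend removed 10 fell and 5 rose. Fkbp5, a cochaperone of the glucocorticoid receptor, measured 463 and 429 TPM in Control and 104, 78.8 and 104 TPM in GC+GW9662. All 3 treated libraries lay below both controls, a difference of -2.23 ± 0.33 (adjusted p = 0.002) that was -1.50 after scaling and -0.76 after removal of the exon-length trend. Klf9, a transcription factor gene that glucocorticoids induce in many cells, measured 111 and 99 TPM against 12.7, 10.5 and 13.1 TPM, without overlap. It kept a fall of -2.31 after scaling and -2.12 at its exon length. The clock gene Per1 (-1.55 ± 0.28, adjusted p = 0.0031) and Zbtb16, a transcription factor gene (-1.83 ± 0.22, adjusted p = 0.0013), held on all 3 scales but did not pass with the trend on principal transcript length removed (adjusted p = 0.21 and 0.17).

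Tsc22d3, the glucocorticoid-induced leucine zipper gene, stood at 572 and 543 TPM in Control and 432, 401 and 455 TPM in GC+GW9662. Its direction depended on the scale: -0.38 (adjusted p = 0.033) became 0.35 after scaling (0.025) and 0.40 after removal of the exon-length trend (0.0097). Ddit4, an inhibitor of mTOR signalling, was the member that rose (271 and 282 against 367, 332 and 336 TPM). The receptor gene Nr3c1 itself measured 35.8 and 32.3 TPM in Control and 5.99, 5.62 and 5.62 TPM in GC+GW9662 and was lower on all 3 scales (-2.38, -1.70 and -1.07). The falls of Fkbp5, Klf9 and Per1 go against the known response to DEX, so group names below are those of the labels, on which each direction depends.

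Of 22 genes that define the adipocyte 17 passed the filter, and these moved in different directions. Of 17 tested adipocyte identity genes 6 rose and 4 fell, and 5 held as higher and 1 as lower on all 3 scales. The number that rose was 3 without either Control replicate and without GC+GW9662 replicate 2 or 3, and the number that fell was 2 without Control replicate 1. Pparg, the target of GW9662, measured 6.29 and 8.84 TPM in Control and 16.7, 18.5 and 17.5 TPM in GC+GW9662. All treated libraries exceeded both controls, by 1.13 ± 0.21 (adjusted p = 0.0033), 1.78 after scaling and 1.48 at matched exon length. Adig, a small adipocyte gene also called adipogenin, rose from 15.5 and 15.9 TPM to 42.6, 54 and 53.8 TPM. Adipor1, an adiponectin receptor gene (0.58 ± 0.12, adjusted p = 0.0045), and Agpat2, an enzyme gene of triglyceride assembly (0.58 ± 0.18, adjusted p = 0.022), rose with it. Adipoq, which encodes adiponectin, measured 173 and 167 TPM and 246, 261 and 248 TPM, a rise (adjusted p = 0.042) that did not pass with the exon-length trend removed (adjusted p = 0.13). Car3, an abundant carbonic anhydrase gene of fat cells, fell from 18.3 and 17.4 TPM to 9.29, 2.94 and 4.41 TPM, with replicate 1 highest of the treated libraries.

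PPARγ target genes of lipid handling moved in both directions. Of 28 tested, 5 rose and 18 fell (backgrounds 14.1% and 48.6%), and 3 and 8 held on all 3 scales (backgrounds 10.8% and 17.6%). The number that held as higher was at the background. Without Control replicate 1 the number that rose was 3 and without Control replicate 2 it was 2, and with the transcript-length trend removed 5 rose and 7 fell. Fabp4, the fatty acid carrier of adipocytes and macrophages and a direct PPARγ target, measured 280.3 and 321 TPM in Control and 647, 777 and 694 TPM in GC+GW9662. Fabp5, its close relative, measured 180.2 and 184 TPM against 362, 401 and 400.4 TPM. Both groups of values were separate for both genes, with rises of 1.23 ± 0.20 (adjusted p = 0.0024) and 1.08 ± 0.22 (adjusted p = 0.0045). The other member that held as higher was Dgat1, which makes triglyceride (0.52 ± 0.13, adjusted p = 0.0075). Lpl, the lipase that frees fatty acids from lipoproteins, went the other way, from 641 and 602 TPM to 101, 84.8 and 92.6 TPM. Its fall was -2.73 ± 0.15 (adjusted p = 3.9e-04), -2.0 after scaling and -1.19 with the exon-length trend removed. Cpt1a, which admits fatty acids to mitochondria, measured 74.2 and 72.9 TPM against 12.1, 10.2 and 9.27 TPM, and its fall also held (-2.0 after scaling and -1.40 with the exon-length trend removed). Plin4, a lipid droplet coat protein gene, fell on all 3 scales (-2.21 ± 0.17, adjusted p = 5.2e-04) but not with the transcript-length trend removed (adjusted p = 0.062).

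**Figure D3:**
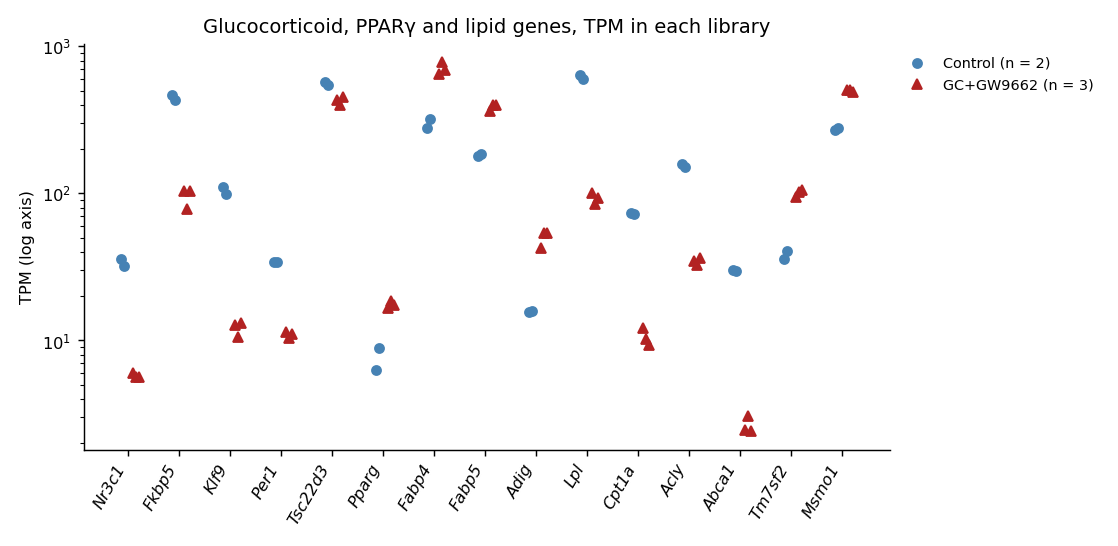
TPM in each library (log axis) of glucocorticoid, PPARγ and lipid genes, with circles for the 2 Control libraries and triangles for the 3 GC+GW9662 libraries. The groups do not overlap for any of the 15 genes; Pparg, Fabp4, Fabp5, Adig, Tm7sf2 and Msmo1 are higher and the other 9 are lower in GC+GW9662, of which Tsc22d3 turned higher after scaling.

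Genes that build fatty acids and triglycerides fell more often than they rose on the deposited scale. Of 21 tested genes of fatty acid and triglyceride synthesis 17 fell and 2 rose, with 10 and 2 holding on all 3 scales. With the transcript-length trend removed 6 fell and 6 rose. The number that rose was 1 without Control replicate 1 or GC+GW9662 replicate 2 or 3, and 0 without Control replicate 2. Acly, which makes cytosolic acetyl-CoA, measured 159 and 152 TPM in Control and 35, 32.5 and 36.1 TPM in GC+GW9662. Acaca, acetyl-CoA carboxylase, measured 10.8 and 11.5 TPM and 0.947, 1.17 and 1.31 TPM. Srebf1, which encodes a transcription factor of lipid synthesis, fell by 1.63 on the log2 scale, and by 0.92 and 0.59 in the other fits. Scd1, the desaturase that makes oleate, fell from 662 and 638 TPM to 196, 174 and 207 TPM and held on all 3 scales, but did not pass with the transcript-length trend removed (-0.37, adjusted p = 0.058). Of 20 tested fatty acid oxidation genes 7 fell and 2 rose (backgrounds 48.6% and 14.1%), and 4 and 1 held (backgrounds 17.6% and 10.8%). These counts were near the background or below it. Without GC+GW9662 replicate 1 or 2, 0 rose, and without GC+GW9662 replicate 3 or GC replicate 3, 1 rose. Leaving out a Control replicate also lowered the number that rose.

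Genes of cholesterol synthesis went in both directions. Of 24 tested genes of cholesterol synthesis and uptake 9 rose and 9 fell, and 7 held as higher and 2 as lower. Without either Control replicate 3 rose and 5 fell, and with the transcript-length trend removed 17 rose and 2 fell. Hmgcs1, an early enzyme of the pathway, held as lower at 132 and 128 TPM in Control and 53, 38.9 and 43.9 TPM in GC+GW9662 (-1.51 ± 0.26, adjusted p = 0.0027). Among those that held as higher, Tm7sf2, a sterol reductase, measured 35.7 and 40.7 TPM against 94.4, 102 and 106 TPM. Msmo1, a methyl sterol oxidase, measured 268 and 277 TPM against 505, 505 and 485 TPM, and Dhcr7, the last reductase, rose by 0.53 ± 0.14 (adjusted p = 0.012). Insig1, which holds the sterol sensor in the endoplasmic reticulum, rose by 0.49 ± 0.13 (adjusted p = 0.013). Of 12 tested genes of cholesterol efflux, many of them targets of the sterol receptor LXR, 10 fell and 1 rose, and 5 and 1 held. Abca1, the main efflux pump, measured 30.1 and 29.7 TPM against 2.47, 3.06 and 2.42 TPM. Abcg1, its partner pump, measured 15.6 and 16.1 against 2.39, 2.28 and 2.23 TPM, and Npc1, which exports cholesterol from lysosomes, 103 and 99 against 24.7, 20 and 24.9 TPM, while Npc2, which hands cholesterol to Npc1, rose by 0.42 ± 0.10 (adjusted p = 0.0077).

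Several chaperones of the endoplasmic reticulum (ER) stayed lower after both corrections. The promoters of 6 ER chaperone genes, 5 of which held on all 3 scales, share a regulatory sequence, the ER stress element, at which ATF6 and NF-Y bind when proteins misfold. It was searched on both strands as CCAAT and CCACG with any 9 bases between them, in RefSeq windows around gene starts (250 before to 50 after, build GRCm38.p6), and 37 of 27025 genes (0.137%) hold it. Among the 36 tested genes of the integrated stress response and ER stress, 33 had a window and 6 (18.2%) held it. The 250 bases before the start of each, on the gene's own strand, are shown because the gene set below was picked by this element. The capitals mark the element.
Hspa5 (chr2:34771840-34772089, plus strand): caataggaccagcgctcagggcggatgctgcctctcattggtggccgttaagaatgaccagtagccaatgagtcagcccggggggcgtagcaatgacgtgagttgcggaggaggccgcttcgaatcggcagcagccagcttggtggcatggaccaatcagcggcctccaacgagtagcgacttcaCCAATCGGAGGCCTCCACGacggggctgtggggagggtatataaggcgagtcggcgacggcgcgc
Hsp90b1 (chr10:86705445-86705694, minus strand): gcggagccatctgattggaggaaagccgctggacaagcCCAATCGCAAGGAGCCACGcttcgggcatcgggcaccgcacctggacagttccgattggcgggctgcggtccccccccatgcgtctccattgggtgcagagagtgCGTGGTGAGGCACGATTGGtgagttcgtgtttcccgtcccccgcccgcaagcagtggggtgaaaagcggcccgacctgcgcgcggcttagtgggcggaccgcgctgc
Calr (chr8:84846932-84847181, minus strand): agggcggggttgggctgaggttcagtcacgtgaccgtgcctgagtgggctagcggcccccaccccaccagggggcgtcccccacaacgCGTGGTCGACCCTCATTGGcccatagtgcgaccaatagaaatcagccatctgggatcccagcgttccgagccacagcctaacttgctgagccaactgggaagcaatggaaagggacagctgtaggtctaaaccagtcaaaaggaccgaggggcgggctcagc
Canx (chr11:50325674-50325923, minus strand): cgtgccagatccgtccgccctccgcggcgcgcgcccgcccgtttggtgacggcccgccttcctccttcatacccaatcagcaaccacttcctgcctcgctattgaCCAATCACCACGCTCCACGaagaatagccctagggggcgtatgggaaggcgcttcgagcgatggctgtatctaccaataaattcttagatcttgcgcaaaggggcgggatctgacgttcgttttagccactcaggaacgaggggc
Dnajc3 (chr14:118937682-118937931, plus strand): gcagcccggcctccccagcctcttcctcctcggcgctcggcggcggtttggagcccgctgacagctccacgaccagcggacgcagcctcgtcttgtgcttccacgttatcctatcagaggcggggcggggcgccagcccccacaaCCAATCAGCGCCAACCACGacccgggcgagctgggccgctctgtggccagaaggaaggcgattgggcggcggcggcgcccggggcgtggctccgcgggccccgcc
Pdia6 (chr12:17266339-17266588, plus strand): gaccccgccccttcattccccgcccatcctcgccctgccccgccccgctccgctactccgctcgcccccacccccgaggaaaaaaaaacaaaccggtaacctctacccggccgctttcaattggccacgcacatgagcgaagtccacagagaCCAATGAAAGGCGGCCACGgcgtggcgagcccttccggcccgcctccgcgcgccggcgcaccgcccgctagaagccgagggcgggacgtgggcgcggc
Hsp90b1 holds 2 copies, 212 and 107 bases before its start, and the single copy in Hspa5 lies 65 bases before its start. A match is a description of letters, not a test of binding.

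Of the 15 tested genes with the element in their window, 13 fell and 0 rose (background 48.6% and 14.1%). On all 3 scales 6 held as lower (background 17.6%). These backgrounds cover all 14985 tested genes, of which 9928 had a window. The shares among genes with a window were not computed. These 15 include the 6 list members shown above, of which 6 fell and 5 held. The counts therefore largely repeat that list and do not describe the element apart from it. Hspa5, the master ER chaperone BiP, measured 783 and 730.1 TPM in Control and 203, 166 and 134 TPM in GC+GW9662. Hsp90b1, the ER form of HSP90, measured 441 and 421 TPM against 56.4, 53.4 and 50.2 TPM. Both groups were separate, and the falls held after scaling (-1.46 for Hspa5 and -2.27 for Hsp90b1) and at matched exon length (-1.44 and -2.30). Calr and Canx, the lectin chaperones calreticulin and calnexin, measured 1490.0 and 1446 against 648, 565 and 654 TPM and 390.0 and 359 against 102, 76.6 and 90.5 TPM. Dnajc3, a cochaperone of BiP, fell by 2.17 ± 0.31 (adjusted p = 0.0019). Pdia6, a disulfide isomerase, fell by 1.02 ± 0.11 (adjusted p = 0.0011) but did not pass after scaling (adjusted p = 0.081).

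Other ER genes fell as well. Pdia4, another disulfide isomerase, with exons of 2399 bases and no match in its window, measured 199 and 184 TPM in Control and 25.7, 13.1 and 22.9 TPM in GC+GW9662. Its difference of -3.21 ± 0.50 (adjusted p = 0.0022) hardly moved with the exon-length trend removed (-3.06). Hyou1, a large ER chaperone, and Atf6, the sensor that becomes the factor binding the element, fell on all 3 scales, Atf6 from 47.8 and 43.8 TPM to 4.49, 3.42 and 4.89 TPM. In the whole list of 36 tested genes 25 fell and 1 rose, and 11 and 0 held on all 3 scales. With the transcript-length trend removed 13 fell and 7 rose.

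Chaperones of the cytosol and mitochondria and the enzymes that load tRNAs fell in part. Of 29 tested heat shock and cochaperone genes 22 fell and 2 rose, with 9 and 2 holding, and without Control replicate 1 the number that fell was 14. Hsp90ab1, the constitutive cytosolic HSP90, measured 1310.0 and 1257 TPM in Control and 264, 194 and 241 TPM in GC+GW9662. Stip1, which links HSP70 to HSP90, with exons of 2108 bases, measured 137 and 131 TPM against 24, 21.5 and 21.9 TPM and fell by 2.50 with the exon-length trend removed. Hspd1, the mitochondrial chaperonin, and Hspe1, its cochaperonin, both on chromosome 1, went in opposite directions. Hspd1 (exons of 2642 bases) measured 103 and 99 against 35.6, 27.2 and 30.1 TPM, and Hspe1 (1474 bases) 76.7 and 95.7 against 172, 209 and 179 TPM. Both differences held on all 3 scales.

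Of 20 tested cytosolic aminoacyl-tRNA synthetases 19 fell and 0 rose, and 16 held as lower on all 3 scales. Of 17 mitochondrial ones, whose principal transcripts are longer (median 3336 against 2854 bases), 8 fell and 2 rose, and 2 and 2 held. Their medians with the exon-length trend removed were -0.85 for the cytosolic and 0.48 for the mitochondrial enzymes; the difference between the groups of enzymes was not tested. Iars, for isoleucine, measured 77.2 and 73.4 TPM in Control and 9.19, 6.93 and 9.45 TPM in GC+GW9662. Aars, for alanine, measured 115 and 106 TPM against 19.8, 15.2 and 19.7 TPM, and Gars, for glycine, 224 and 222 against 91.2, 69.5 and 84.6 TPM. The letters TGATGNAA form the core of the amino acid response element, bound by ATF4 with C/EBP factors. They stood in the windows of 5 of 28 synthetase genes with one (17.9%), namely Iars, Aars, Tars, Gars and Yars. The share was 4.51% of all genes with a window and 2.76% of tested ones. All 5 synthetase genes with the letters held as lower, but all 5 are cytosolic, and 16 of the 20 cytosolic enzymes held as lower. The count therefore does not describe the letters apart from that group. Of all 274 tested genes with these letters 157 fell and 29 rose (backgrounds 48.6% and 14.1%). On all 3 scales 56 of the 274 held as lower (background 17.6%). These backgrounds again cover all tested genes, not only those with a window. In the list of ER stress and integrated stress response genes 6 of 33 had the same letters, of which 4 fell and 0 held on all 3 scales. The response elements of the glucocorticoid receptor and of PPARγ were searched as well. The first stood in 1 of 18 glucocorticoid-induced genes with a window, Sgk1, which did not pass. The second stood in 0 of 18 PPARγ target genes with a window. Among all genes with a window 0.0777% and 0.0481% held them, so matches were too rare to compare the lists.

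**Figure D4:**
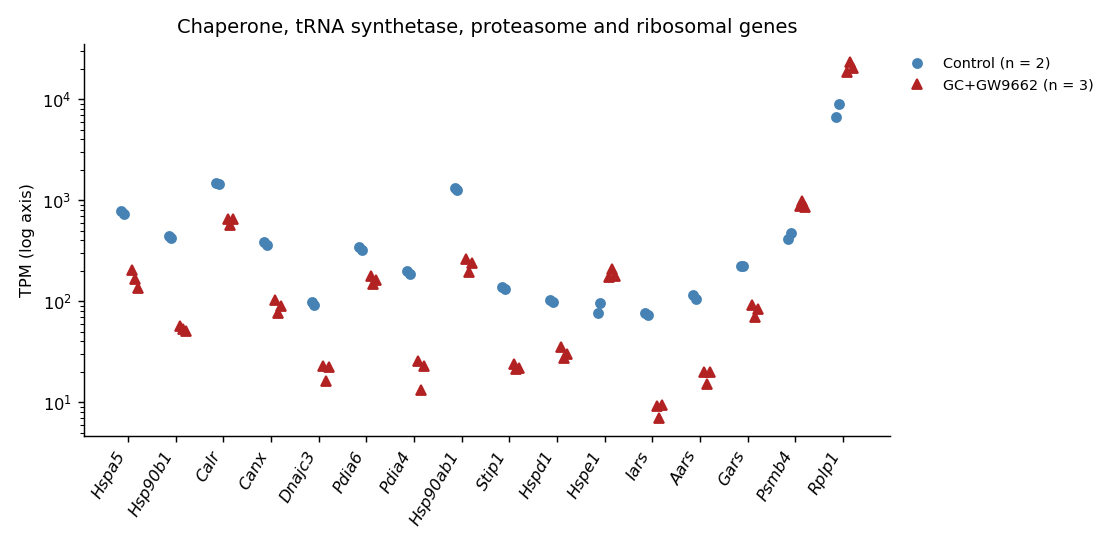
TPM in each library (log axis) of chaperone, tRNA synthetase, proteasome and ribosomal genes, with circles for the 2 Control libraries and triangles for the 3 GC+GW9662 libraries. Hspe1, Psmb4 and Rplp1 are higher and the other 13 genes lower in all 3 GC+GW9662 libraries.

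Genes of the extracellular matrix were lower with few exceptions. Of 24 tested collagen chains 23 fell and 0 rose, and 19 held as lower on all 3 scales (against a background of 17.6% of tested genes). Of 35 matrix glycoproteins and proteoglycans 32 fell and 1 rose, and 27 and 1 held. The largest fall among genes of at least 5 TPM whose groups did not overlap was that of Postn, the matrix protein periostin, from 300.1 and 286 TPM to 23.6, 20.2 and 24 TPM (-3.64 ± 0.72, adjusted p = 0.0039; -2.23 with the exon-length trend removed). Thbs1, thrombospondin 1, measured 2689 and 2577 TPM in Control and 286, 322 and 335 TPM in GC+GW9662, and Thbs2 245 and 232 against 26.2, 21.6 and 23.4 TPM. Lox, the enzyme that crosslinks collagen, measured 2142 and 2055 TPM against 389, 296 and 385 TPM. Col3a1, a fibrillar collagen (-2.98 ± 0.19, adjusted p = 3.9e-04), and Col12a1, a fibril-associated one (-3.29 ± 0.58, adjusted p = 0.0029), fell with them. Wisp2, a secreted regulator of stromal cells, was the member that rose, from 739 and 722 TPM to 991, 971 and 990.3 TPM.

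Contractile and TGF-beta genes fell more often than they rose. Of 23 tested contractile genes 21 fell and 1 rose, and 15 and 1 held. Lmod1, an actin nucleator of smooth muscle, measured 71.7 and 66.8 TPM in Control and 7.38, 7.74 and 6.96 TPM in GC+GW9662. Tagln, which binds actin, was the one that rose (3436 and 3540.0 against 5019, 5157 and 5068 TPM). Acta2, smooth muscle actin, fell by 0.61 (adjusted p = 0.0041) but stood at 0.12 after scaling (adjusted p = 0.65). Of 31 tested TGF-beta and BMP pathway genes 25 fell and 3 rose, and 15 and 2 held; 1 rose without either Control replicate or GC+GW9662 replicate 2. With the transcript-length trend removed 12 fell and 5 rose. Among ligands, Inhba, the activin A subunit, measured 55.2 and 52.3 TPM against 5.75, 5.46 and 4.16 TPM, and Tgfb2 35 and 34.7 against 4.68, 5.29 and 5.92 TPM. Id3, a BMP target, and Smad7, a feedback inhibitor, held as higher, Id3 at 729 and 769 against 1207, 1238 and 1163 TPM.

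Markers of cell types other than adipocytes moved beside these groups. In bulk RNA fewer cells of a type and less RNA per cell cannot be told apart. Summed over 28 tested macrophage markers, Control held 47170 and 46370 TPM and GC+GW9662 45290, 40330 and 44280 TPM. The 22 adipocyte identity genes, of which 17 were tested, summed to 1206 to 1540 TPM. That list leaves out Fabp4 and Lpl, which stand among the PPARγ targets (4067 and 3948 TPM summed in Control). Sums over lists of unlike size and members do not measure cell make-up. Macrophage markers rose in 4 and fell in 16 cases, and 4 and 9 held. The number that rose was 0 without Control replicate 1 and 1 without Control replicate 2. Mrc1, the mannose receptor, measured 435 and 407 TPM against 39.8, 40.6 and 43.2 TPM, and Csf1r, the receptor for macrophage growth factor, 729.7 and 688 against 147, 122 and 147 TPM. Mpeg1, a pore-forming protein of macrophages, fell by 2.51 ± 0.20 (adjusted p = 5.4e-04). Tyrobp, a signalling adaptor with exons of 667 bases, was higher (2182 and 2521 against 4581, 4806 and 4664 TPM), as was its partner Trem2 (191 and 193 against 280.4, 286 and 279 TPM), but neither passed with the transcript-length trend removed (adjusted p = 0.067 and 0.2). Lyz2, lysozyme, the most abundant marker, measured 10920.0 and 10440.0 TPM against 7887, 4639 and 6698 TPM and did not pass after scaling (-0.04, adjusted p = 0.91). The part of macrophages in the lists of lipid and inflammatory genes was not tested.

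Stromal and bone markers were lower: 18 of 21 marrow stromal genes fell and 1 rose (7 and 0 held), and 8 of 11 osteoblast genes fell and 1 rose (4 and 0 held). With the transcript-length trend removed 8 stromal genes fell and 3 rose. Kitl, the stem cell factor of the marrow niche, measured 22.4 and 22.1 TPM in Control and 3.58, 1.94 and 3.02 TPM in GC+GW9662. Ibsp, bone sialoprotein, with exons of 2068 bases, measured 90.4 and 86 TPM against 17.9, 10.1 and 14.9 TPM. Alpl, the alkaline phosphatase of bone-forming cells, fell by 2.23 ± 0.30 (adjusted p = 0.0017). Lymphocyte markers were low throughout, 20.2 and 22.0 TPM summed in Control and 46.4, 39.4 and 50.8 TPM in GC+GW9662. Of 10 tested, 7 rose, but 1 without Control replicate 1, 2 without Control replicate 2 and 4 without GC+GW9662 replicate 1. On all 3 scales 6 held, among them the T cell receptor constant genes Trac (4.54 and 5.08 against 12.5, 8.71 and 10.5 TPM) and Trbc2 (2.73 and 2.92 against 7.84, 10.3 and 9.01 TPM). Trac did not pass with the transcript-length trend removed (adjusted p = 0.051).

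Chemokine genes rose more often than they fell. Of 34 tested chemokine and receptor genes 11 rose and 3 fell, with 6 and 2 holding. The number that rose was 4 without Control replicate 1 and 7 without Control replicate 2. Ccl9, a macrophage and osteoclast attractant, measured 340.4 and 384 TPM in Control and 835, 867 and 852 TPM in GC+GW9662. Ccl6, from the same gene cluster, measured 65.3 and 72 TPM against 153, 142 and 148 TPM, and Ccl8 3.51 and 3.62 against 8.15, 12.9 and 11.3 TPM. All 3 treated libraries exceeded both controls for each of these genes.

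Senescence, the arrest of cell division that the study had as its theme, was read from cell cycle inhibitors and from the secreted factors of senescent cells. Of 19 tested senescence and cell cycle inhibitor genes 10 fell and 2 rose (backgrounds 48.6% and 14.1%), and 3 and 1 held (backgrounds 17.6% and 10.8%). These counts were near the background or below it. The number that rose was 1 without GC+GW9662 replicate 2 or 3 or GC replicate 3, and was also lower without a Control replicate. Cdkn1a, which encodes p21, measured 710.0 and 685 TPM in Control and 606, 513 and 599.8 TPM in GC+GW9662. It did not pass (adjusted p = 0.054) with a difference of -0.29 ± 0.11, and had the opposite sign after scaling (0.44, adjusted p = 0.022) and with the exon-length trend removed (0.26, adjusted p = 0.044). Cdkn2a, which encodes p16 and p19Arf, measured 429 and 462 TPM against 681, 600.0 and 651 TPM. Its rise (adjusted p = 0.039) did not pass with the exon-length trend removed (0.26, adjusted p = 0.23). Cdkn2d, the p19 inhibitor of cyclin D kinases, held as higher (18.6 and 23.9 against 40.8, 49.5 and 40.6 TPM). Of 50 tested senescence-associated secretory genes 27 fell and 7 rose, and 15 and 6 held, against the same backgrounds. Fewer of them rose without Control replicate 1. Csf1, macrophage growth factor, measured 524 and 495 TPM against 94, 89 and 97.1 TPM, while Timp1, a protease inhibitor with exons of 888 bases, measured 2937 and 3161 against 4975, 6060.0 and 5417 TPM. Il6 was at 0.765 and 1.24 TPM in Control and 1.2, 0.586 and 1.47 TPM in GC+GW9662, with overlap. Ptgs2, the inducible prostaglandin synthase, measured 5.72 and 6.44 TPM against 1.68, 1.25 and 1.44 TPM, a fall (adjusted p = 0.015) that did not pass with the exon-length trend removed (adjusted p = 0.1).

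Antioxidant genes went in both directions. Of 31 tested antioxidant genes, many of them targets of the factor Nrf2, 19 fell and 7 rose, and 10 and 7 held, while without Control replicate 1 the number that rose was 3. Nfe2l2, which encodes Nrf2, measured 171 and 158 TPM in Control and 30.2, 22.5 and 30.9 TPM in GC+GW9662. Cat, catalase, measured 662 and 619 TPM against 185, 114 and 166 TPM, and Gclc, which makes the precursor of glutathione, 185 and 174 against 51.6, 27.7 and 46.2 TPM. Among the members that rose, the glutathione peroxidase Gpx1 measured 1724 and 1994 TPM against 3893, 4693 and 4158 TPM, and Gpx4 206 and 226 against 484, 611 and 524 TPM. Sod1, cytosolic superoxide dismutase (147 and 164 against 289, 332 and 310.1 TPM), and Prdx1, a peroxiredoxin (0.83 ± 0.21, adjusted p = 0.01), rose as well. The falling Cat and Gclc have exons of 2613 and 3766 bases and the rising Gpx1 and Gpx4 of 1441 and 1724. The difference of Cat was -2.07, and -1.84 with the exon-length trend removed. Whether length underlies these directions was not tested.

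Genes for ribosomes, the respiratory chain and the proteasome core, most of them short, were higher and stayed so after the length correction. Of 81 tested cytosolic ribosomal proteins 67 rose and 1 fell, and 64 and 0 held (background 10.8% and 17.6%). Rplp1 measured 6692 and 8896 TPM in Control and 18490.0, 23500.0 and 20530.0 TPM in GC+GW9662, and Rps14 1648 and 2457 against 5760.0, 7422 and 6133 TPM. Rpl4, with longer exons (2007 bases), was the one that fell (-0.61, adjusted p = 0.02), with 0.12 after scaling. Reads of ribosomal genes can be shared with their many processed copies, and such a copy had the largest rise among genes of at least 5 TPM whose groups did not overlap. It was Rps12-ps19, at 1.18 and 2.86 TPM in Control and 52.5, 110.5 and 3.84 TPM in GC+GW9662, far lower in replicate 3 than in replicates 1 and 2, and it did not pass with the exon-length trend removed (adjusted p = 0.05). Of 80 nuclear-encoded respiratory chain genes 64 rose and 3 fell, and 59 and 2 held. Cox4i1, a core subunit of cytochrome oxidase, measured 1765 and 2070.0 TPM against 4348, 5171 and 4543 TPM. The exceptions that held were Sdha, the flavoprotein of complex II (279 and 276 against 112, 83.3 and 101 TPM), and Ndufa10 of complex I (-1.41 ± 0.25, adjusted p = 0.0029). Mitochondrial ribosomal proteins rose in 44 and fell in 5 of 76 cases, with 40 and 0 holding. Of these mitochondrial ribosomal genes 20 rose and 1 fell without Control replicate 1, 29 rose and 1 fell without Control replicate 2, and 3 fell without GC+GW9662 replicate 2 or GC replicate 3. Without Control replicate 1, 42 respiratory chain genes rose.

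Of 18 proteasome core particle genes 16 rose and 0 fell, and 15 held, with a median difference of 0.94 after removal of the exon-length trend and 0.48 after that of the transcript-length trend. Of 20 regulatory particle genes 5 rose and 8 fell, and 5 and 2 held. Over all 43 proteasome genes 23 rose, 12 without Control replicate 1 and 14 without Control replicate 2. Psmb4 and Psmb6 of the core measured 410.0 and 469 against 875, 994 and 853 TPM and 419 and 441 against 764, 903 and 845 TPM. Psmd1, a large scaffold of the cap, measured 182 and 168 against 46.6, 29.7 and 35.1 TPM. Genes of the mitochondrial chromosome, whose transcripts come from common precursors, fell in 8 and rose in 2 of 12 cases, and 4 and 1 held, with 1 rising without either Control replicate or GC+GW9662 replicate 2. mt-Nd5, the longest of them, measured 3517 and 3241 TPM in Control and 582, 429.7 and 568 TPM in GC+GW9662, while mt-Co3 measured 24.4 and 28.5 TPM against 62.8, 72.4 and 70.2 TPM. Reads of these genes can be shared with nuclear copies. Together the mitochondrial chromosome took 3.6% to 3.7% of TPM in Control and 2.1% to 2.4% in GC+GW9662.

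Single genes with large falls came from other groups. Nedd4, a ubiquitin ligase, measured 363 and 353 TPM in Control and 34.3, 26.9 and 36 TPM in GC+GW9662. Atp7a, a copper transporter, measured 90.6 and 85.2 TPM against 6.92, 5.85 and 8.96 TPM, and Cdh11, a cadherin of mesenchymal cells, 119 and 115 against 12.7, 8.17 and 9.89 TPM. Iqgap1, a scaffold of the actin cortex, measured 137 and 131 TPM against 12.2, 10.9 and 11.9 TPM, and Colec12, a scavenger receptor, 145 and 139 against 11.1, 9.37 and 12.5 TPM. All 5 held as lower on all 3 scales, and with the exon-length trend removed their differences were -1.87, -2.04, -1.99, -1.68 and -2.18. Their exons sum to 8725 to 16538 bases.

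Of 30 tested autophagy genes 20 fell and 6 rose, and 10 and 6 held. The number that rose was 2 without Control replicate 1 and 3 without Control replicate 2, and with the transcript-length trend removed 12 fell and 10 rose. The cargo receptors Nbr1 (96.2 and 93.3 against 11.8, 12.1 and 12.2 TPM) and Tax1bp1 (101 and 95 against 11.6, 11.7 and 11.3 TPM) were lower, and Gabarap, a small protein joined to autophagosome membranes, was higher (959 and 1026 against 1521, 1599 and 1574 TPM).

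**Figure D5:**
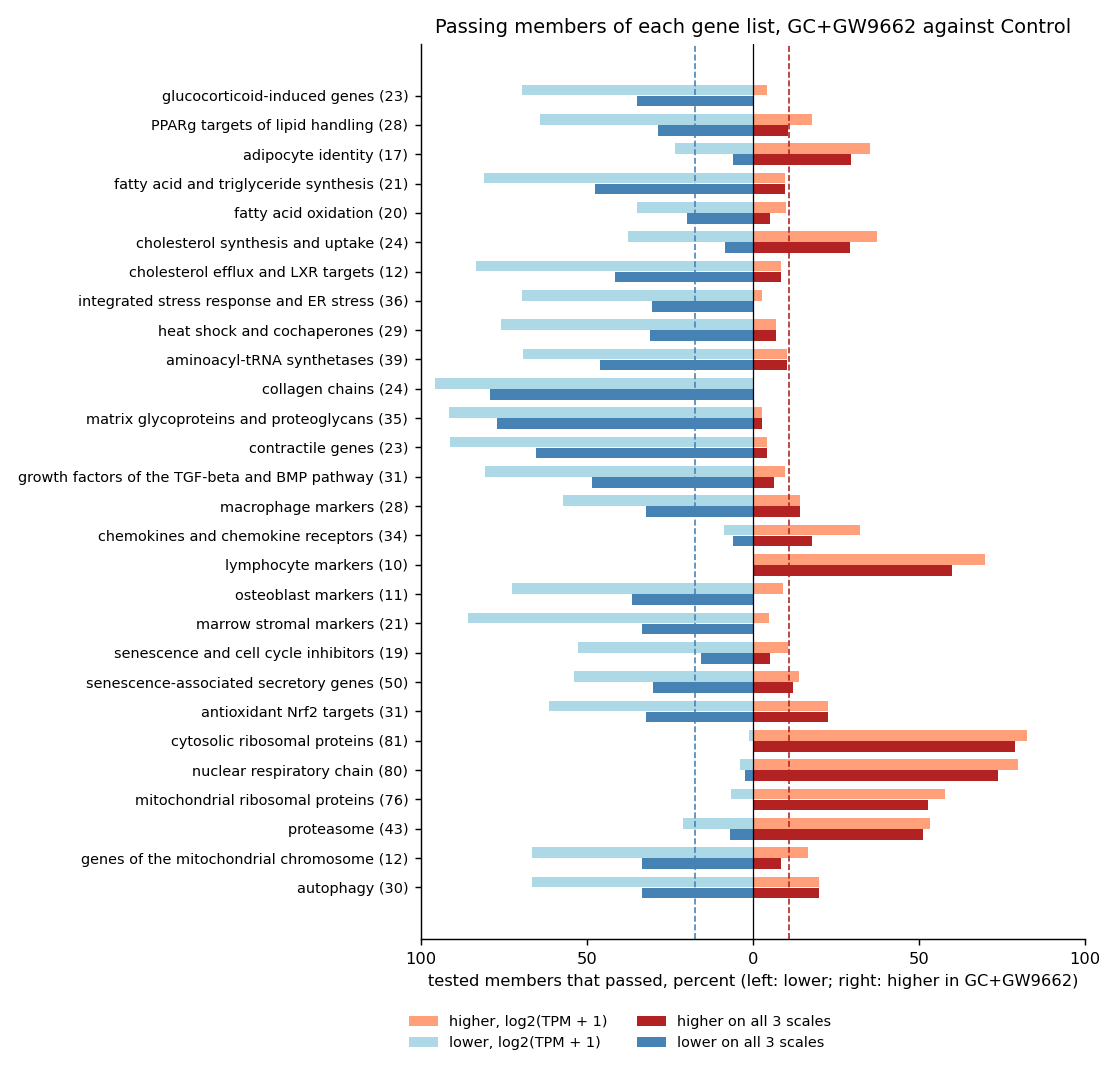
Percent of tested members (number in parentheses) of each gene list that passed as lower (left) or higher (right) in GC+GW9662, light bars on log2(TPM + 1) and dark bars for members holding on all 3 scales. Dashed lines mark the shares over all tested genes that held, 17.6% lower and 10.8% higher. Matrix and contractile lists extend far left and ribosomal and respiratory chain lists far right of these lines.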

How the data were processed

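Smart-Seq2 libraries, which amplify full-length cDNA and carry no strand, were read. The deposited table gives TPM per gene as the authors computed it; per the submitters' processing notes the tools included fastp, HISAT2 2.1.0 and featureCounts, and the build and annotation are not given in the sources used here. GENCODE M21 shared the start and end of 97.6% of the deposited genes and supplied exon and transcript lengths. Of 54232 rows, 98 that repeated a gene were dropped and 54134 genes remained. Columns were assigned through the bracketed labels (Control2 is C3); replicates are named by title.

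The 14985 genes that reached 1 TPM in 2 or more of the 8 libraries were fitted as log2(TPM + 1) with limma 3.58.1 (R 4.3.3, a mean per group over all 8 libraries, trended prior, two-sided, threshold 0.05). The GC libraries (n = 3) entered the gene filter, the estimate of spread and the gene means behind median-ratio scaling and length trends. They entered no comparison. The fit was tested on simulated data. Median-ratio factors were 1.44 and 1.39 in Control and 0.902, 0.795 and 0.864 in GC+GW9662. The length trend was a lowess curve per library on log2 exon length. Alternatives were other pseudocounts, filters, scalings, priors, weights and groups, replicate blocks and omitted libraries. Summaries used Python 3.11.15, numpy 2.4.6, pandas 2.3.3 and matplotlib 3.10.9. Promoters came from RefSeq (GRCm38.p6).

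Gene lists and members were chosen with earlier results of these data known. Named genes came from 12 fixed genes, the 12 largest rises and 12 largest falls of genes of at least 5 TPM whose groups did not overlap, genes that reversed or passed only after median-ratio scaling, and, per list, up to 5 leading members, the leading exception, the 2 most abundant and up to 2 that did not pass. Bax, Canx, Ccl6, Dgat1, Dhcr7, Dnajc3, Fabp5, Gars, Hspd1, Lox, Pdia6, Prdx1, Smad7, Sod1, Trem2, Yars and the neighbouring pairs were chosen after their values were seen. Some genes that the rule selects are not reported here.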

Additional observations from a re-analysis of the deposited data

How the results depend on the processing

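Passing genes numbered 9398. Higher and lower counts were 4507 and 4601 after median-ratio scaling, 4216 and 4443 after quantile normalization, 3543 and 3412 with the exon-length trend removed and 3375 and 3168 with the transcript-length trend removed. The last of these and voom on estimated reads (3635 and 5427) were added after seeing the data. Leaving out single libraries gave 5902 to 10317 passing genes, 916 to 2573 higher and 4986 to 7744 lower; leaving out a Control replicate leaves 1, assumed to vary like the other groups. Genes at least 2-fold apart (5854) became 3665 with a pseudocount of 5, 2925 with the exon-length and 2349 with the transcript-length trend removed. The longest bin lay -2.27 from the shortest, -2.99 with a pseudocount of 0.1, -1.31 with 5, -1.43 without a filter, -2.72 with a filter of 5 TPM, -2.04 after median-ratio scaling, -1.91 after quantile normalization, and -0.17 and -0.32 with the exon- and transcript-length trend removed. Members lower outnumbered members higher in 44 of the gene lists, in 31 after median-ratio scaling and in 30 with the exon-length trend removed.

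Directions reversed for Tsc22d3 (0.35 after median-ratio scaling, 0.40 without the exon-length trend, 0.12 in voom), Cdkn1a (0.44, 0.26 and 0.22, and 0.08 without the transcript-length trend), Acta2 and Rpl4 (0.12 each after median-ratio scaling) and Il6 (-0.23 without the transcript-length trend, -0.13 to 0.23 without single libraries); the cause was not tested.

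Deviations from the group mean correlated at 0.07 and 0.02 for equal title numbers and at 0.07 and 0.03 for equal bracket numbers. Pairs that shared neither number lay from -0.07 to -0.02. With 2 Control libraries, the deviations of replicate 2 mirror those of replicate 1, so these correlations cannot decide whether replicates were paired. A replicate block by title number gave 1780 higher and 6588 lower genes, by bracket number 1812 and 6553.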

Other observations

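Other gene groups were described by the same counts. Of 27 tested Toll-like receptor and NF-kB genes 15 fell and 1 rose, and 7 and 0 held on all 3 scales (backgrounds 17.6% and 10.8%). With the transcript-length trend removed 6 fell and 6 rose. The receptors for RNA inside endosomes led: Tlr8 measured 158 and 154 TPM in Control and 18.3, 12.1 and 17.6 TPM in GC+GW9662, Tlr7 149.6 and 139.9 against 36.2, 24.2 and 32.4 TPM and Tlr13 244 and 219.8 against 43.5, 27.6 and 37 TPM. With the exon-length trend removed their differences were -2.67, -1.50 and -1.91. All 3 lie on the X chromosome, with exons of 3586 to 4304 bases in sum. Of 16 tested complement genes 8 fell and 0 rose, and 6 held as lower.

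Of 29 tested immediate early genes 15 fell and 2 rose (backgrounds 48.6% and 14.1%), and 6 and 2 held (backgrounds 17.6% and 10.8%). With the transcript-length trend removed 6 fell and 9 rose. Jun, an AP-1 subunit, measured 86.2 and 76.8 TPM in Control and 26.6, 20.9 and 23.6 TPM in GC+GW9662, and Myc, a growth factor-induced transcription factor, 45.2 and 41 against 11.3, 10.4 and 6.96 TPM. Of 24 tested p53 targets 14 fell and 3 rose, and 3 and 2 held, against the same backgrounds. With the transcript-length trend removed 3 fell and 8 rose. The counts that held were near the background in both lists. The 2 that held as higher were Bax, which opens mitochondria in cell death (237 and 261 against 449, 503 and 462 TPM), and Ei24 (179.7 and 204 against 391, 444 and 411 TPM).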
